A study of Mus musculus with 8 samples.

Results

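Expression of the MHC class I antigen presentation genes was examined in 4 mouse stem cell types and in 8 RNA sequencing libraries. The 10 genes were chosen by symbol from the 24354 genes of the expression table, and all 10 were found. They encode the heavy chains H2-K1 and H2-D1, the light chain B2m, the peptide transporter subunits Tap1 and Tap2, the loading chaperone Tapbp (tapasin), the immunoproteasome subunits Psmb8, Psmb9, and Psmb10, and the transactivator Nlrc5. Each cell type had 2 libraries, and values are given as mean ± SD (n = 2) of FPKM, fragments per kilobase of transcript and per 1000000 mapped fragments, so that levels are per transcript length. Wild-type E14 embryonic stem cells (ESCs) were grown with serum and LIF. Neural stem cells (NSCs) carried the OG2 (Oct4-GFP) and ROSA26 transgenes in the heterozygous state (OG2+/- ROSA+/-) and were grown on gelatin with N2, EGF, and FGF2. Extended pluripotent stem cells (EPSCs) were 1 wild-type line from C57BL/6 embryos at passage 15, kept in N2B27 with LIF, CHIR99021, dimethindene maleate, and minocycline. The hybrid cells were 1 tetraploid line made by fusing EPSCs and NSCs with polyethylene glycol, picked by Oct4-GFP, and grown in the EPSC medium to passage 10. ESCs, EPSCs, and hybrid cells shared a feeder layer of mitomycin C-inactivated C3H mouse embryonic fibroblasts, and NSCs had none. The libraries of a group came from the same line, so p-values measure the spread between repeated libraries.

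MHC class I molecules present peptides from inside the cell to CD8+ T cells. The proteasome cuts proteins into peptides, Tap1 and Tap2 carry them into the endoplasmic reticulum, and tapasin holds the empty complex of heavy chain and B2m beside the transporter until a peptide binds. Interferon-gamma raises most of these genes, in part through Irf1, and Nlrc5 acts on class I promoters through a conserved module with an X2 box and a Y box. Class I expression is known to be low in pluripotent cells.

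Most of the genes lie on chromosome 17, in the MHC. On GRCm38.p6, RefSeq places Tapbp at chr17:33919478-33929290, H2-K1 at chr17:33996012-34000619, Psmb9 at chr17:34182030-34187330, Tap1 at chr17:34187556-34197225, Psmb8 at chr17:34198195-34201454, Tap2 at chr17:34204479-34216321, and H2-D1 at chr17:35263094-35267497. Psmb9 and Tap1 are transcribed away from each other from starts 225 bases apart, and Psmb9, Tap1, Psmb8, and Tap2 together span 34292 bases. B2m lies at chr2:122147687-122153082, Psmb10 at chr8:105935728-105938392, and Nlrc5 at chr8:94434335-94527272. All 10 are annotated as protein coding.

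The stretches shown here are the X2 and Y box letters ahead of annotated starts of the heavy chain and light chain genes, since these 3 products form 1 complex. They come from the RefSeq promoter table of GRCm38.p6, which held 8 of the 10 genes, and capitals mark TGACG at the left end and ATTGG at the right end. On the other strand, the latter reads CCAAT.
H2-K1: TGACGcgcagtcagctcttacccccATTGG
H2-D1: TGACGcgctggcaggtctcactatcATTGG
B2m: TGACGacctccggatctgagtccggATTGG
These lie at chr17:34000359-34000388 on the minus strand, chr17:35262993-35263022 on the plus strand, and chr2:122147609-122147638 on the plus strand. The H2-K1 stretch lies inside the span given for the gene, at -41 to -12 from an internal annotated start, and those of H2-D1 (-101 to -72) and B2m (-78 to -49) lie ahead of the span. In all 3 genes the capitals start 25 bases apart. H2-K1 and H2-D1 shared 23 of the 30 bases, H2-K1 and B2m shared 13, and H2-D1 and B2m shared 12. Within 250 bases ahead of annotated starts, both strands read, TGACG was found in 17.8% and CCAAT in 33.8% of 32851 windows, and the pair at this spacing in 0.0913% (30 windows of 26 genes, the class I gene H2-M3 among them). The spacing was noticed after the single matches had been listed. A letter match is a description and not a binding site.

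Elements of the interferon response were searched in the same windows, and the matches in B2m and Psmb8 are shown because they were the only ones among the 8 genes. The core of the interferon-stimulated response element (GAAA, any 2 bases, GAAA) was in 2.98% of all windows, and TTCNNNGAA, the gamma-activated site, was in 7.02%.
B2m: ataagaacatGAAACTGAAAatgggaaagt
Psmb8: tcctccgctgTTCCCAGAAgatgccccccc
The first lies at chr2:122147538-122147567 and the second at chr17:34198088-34198117, both on the plus strand. Capitals mark the match. Between the starts of Psmb9 and Tap1 there was 1 TGACG and 1 CCAAT, Tapbp had 2 CCAAT, and the window of Psmb10 held none of the 4 motifs.

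Libraries of a group correlated with Pearson's r of 0.988 to 0.995 over 13239 genes, those whose mean FPKM reached 1 in a group. The labelled cell types had their defining markers. Pou5f1 was at 742 to 1106 FPKM in ESCs, EPSCs, and hybrid cells and at 0 in NSCs, and Fabp7, a neural stem cell gene, was at 2709 to 2798 FPKM in NSCs and at most 0.238 FPKM elsewhere. Not all 8 listed neural markers were absent outside NSCs, and Vim stood at 208 to 655 FPKM in ESCs, EPSCs, and hybrid cells. In hybrid cells against EPSCs, limma called Vim higher and 3 of the 8 lower, against 22.5% and 21.9% of all tested genes. Read counts were not part of the files. The steps between low FPKM values correspond to 22.15 to 32.6 times 1000000 fragments per library if fragments were 200 bases long. At that depth, Psmb8 and Psmb9 rested on about 9.67 to 27.9 fragments in each EPSC and hybrid library, and B2m on at least about 468 in every library.

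The heavy chain gene H2-K1 was highest in NSCs. It stood at 28.3 and 26.6 FPKM in NSCs and at 14.4 and 13.8 FPKM in ESCs. EPSCs had 11.7 and 8.49 FPKM, and hybrid cells had 9.96 and 8.69. The libraries of NSCs and of ESCs were separate from all others, and the hybrid libraries lay within the EPSC range. In order, the mean of NSCs was 27.5 ± 1.16 FPKM, that of ESCs 14.1 ± 0.467, that of EPSCs 10.1 ± 2.28, and that of hybrid cells 9.33 ± 0.896. Of neighbours in this order, EPSCs and hybrid cells did not differ beyond their spread (limma, Benjamini-Hochberg (BH) adjusted p = 0.62).

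H2-D1, the other heavy chain gene, had a different order and was highest in ESCs. It stood at 14.01 and 12.9 FPKM in ESCs, 7.03 and 5.47 in hybrid cells, 4.396 and 4.377 in NSCs, and 3.43 and 3.30 in EPSCs. No libraries of different groups overlapped. The ESC mean of 13.5 ± 0.762 FPKM was 4.002 times the EPSC mean of 3.37 ± 0.0969. The ratio of H2-D1 to H2-K1 was 0.955 ± 0.0225 in ESCs, 0.667 ± 0.0543 in hybrid cells, 0.341 ± 0.0672 in EPSCs, and 0.160 ± 0.00627 in NSCs. Heavy chain genes resemble each other. Of the 100-base windows of the longest coding H2-D1 transcript, 4.64% occurred word for word in transcripts of 9 other genes, H2-Q1 and H2-T23 among them. Of the H2-K1 windows 0% did. By exact matches alone, the H2-D1 level is the less certain. Near matches and alleles of other strains were not searched, so the H2-K1 level may be uncertain too.

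B2m, the light chain that every classical class I heavy chain needs, was the most abundant of the 10 genes in every library. It stood at 109 and 114 FPKM in NSCs, 80.1 and 64.0 in hybrid cells, 48.0 and 49.4 in ESCs, and 34.7 and 30.8 in EPSCs. The groups did not overlap, and each step in this order passed the test (limma, BH-adjusted p from 0.000721 to 0.00288). The EPSC mean of 32.8 ± 2.79 FPKM was the lowest, and the hybrid mean was 72.1 ± 11.3.

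Both subunits of the peptide transporter were highest in NSCs. Tap1 stood at 5.58 and 5.79 FPKM in NSCs, 1.86 and 2.04 in hybrid cells, 1.67 and 1.63 in ESCs, and 0.806 and 0.904 in EPSCs. Tap2 stood at 5.54 and 4.90 FPKM in NSCs, 1.64 and 1.15 in hybrid cells, 0.321 and 0.496 in ESCs, and 0.376 and 0.304 in EPSCs. The NSC libraries were far above the rest for both genes, and only for Tap2 did ESC and EPSC libraries overlap. The NSC mean of Tap2 was 15.3 times the EPSC mean and 12.8 times the ESC mean. Of neighbours in order, hybrid cells and ESCs were not told apart for Tap1 (limma, BH-adjusted p = 0.116), nor ESCs and EPSCs for Tap2 (limma, BH-adjusted p = 0.642).

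Tapbp, the chaperone that holds class I molecules beside the transporter, had the smallest range of group means among the 10 genes, with an ESC mean 1.74 times the NSC mean. It stood at 19.4 FPKM in both ESC libraries, 12.5 and 15.3 in EPSCs, 10.8 and 15.0 in hybrid cells, and 11.3 and 11.0 in NSCs. The ESC libraries were above all others, and the hybrid libraries spanned those of NSCs and most of the EPSC range. The neighbours EPSCs and hybrid cells (limma, BH-adjusted p = 0.57) and hybrid cells and NSCs (limma, BH-adjusted p = 0.276) did not differ beyond their spread.

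**Figure D1:**
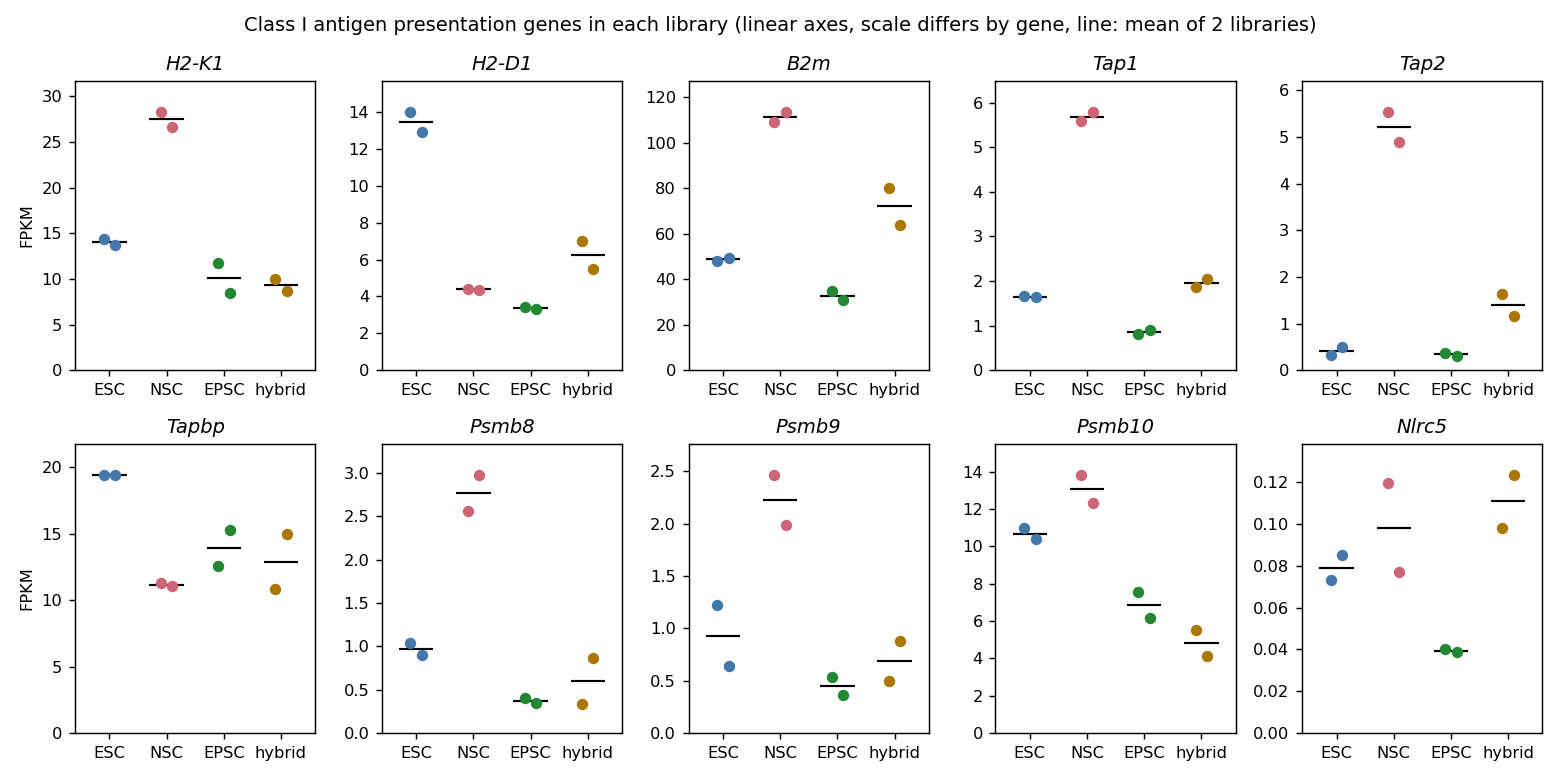
FPKM of each of the 10 genes (y axis, linear and scaled by gene) in both libraries of ESCs, NSCs, EPSCs, and hybrid cells (x axis), with the mean as a line. NSC libraries are highest for 7 genes, ESC libraries for H2-D1 and Tapbp, and Nlrc5 is at or under 0.124 FPKM in every library.

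The immunoproteasome subunits replace the constitutive catalytic subunits when interferon is present and change which peptides are made. Psmb8 stood at 2.56 and 2.98 FPKM in NSCs, 1.03 and 0.898 in ESCs, 0.329 and 0.865 in hybrid cells, and 0.403 and 0.343 in EPSCs. Psmb9 stood at 2.47 and 1.99 FPKM in NSCs, 1.22 and 0.635 in ESCs, 0.493 and 0.882 in hybrid cells, and 0.536 and 0.365 in EPSCs. For both genes the NSC libraries were above all others, and the hybrid libraries overlapped those of EPSCs. Psmb10 was more abundant, at 13.8 and 12.3 FPKM in NSCs and 11.0 and 10.4 in ESCs, followed by EPSCs with 7.57 and 6.18 and hybrid cells with 5.51 and 4.13. Its groups did not overlap, though NSCs and ESCs were not told apart by the test (limma, BH-adjusted p = 0.101). Psmb10 was called lower in ESCs with libraries scaled to the same FPKM sum (log2 difference -0.81, limma, BH-adjusted p = 0.000574). It was also called, at -0.27, in a fit of the compared groups only (limma, BH-adjusted p = 0.015) and with a replicate block (limma, BH-adjusted p = 0.0247). With quantile normalization it stood at -0.10 and was not called.

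The constitutive subunits were at much higher levels and in another order. Psmb5, the subunit that Psmb8 replaces, stood at 258 and 241 FPKM in EPSCs, 172 and 169 in hybrid cells, 125 and 124 in ESCs, and 76.0 and 68.5 in NSCs. Psmb6, replaced by Psmb9, was highest in hybrid cells at 414 and 417 FPKM, with 328 and 317 in EPSCs, 238 and 225 in ESCs, and 167 and 159 in NSCs. Psmb7, replaced by Psmb10, ranged from 184 to 186 FPKM in NSCs, from 242 to 258 in ESCs, and from 337 to 384 in EPSCs and hybrid cells. All 3 were lowest in NSCs, where the immunoproteasome subunits were highest.

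Relative to its constitutive partner, each immunoproteasome subunit was a small share. Psmb8 was 3.86 ± 0.695% of Psmb5 in NSCs, 0.775 ± 0.0760% in ESCs, 0.352 ± 0.227% in hybrid cells, and 0.149 ± 0.00971% in EPSCs. Psmb9 was 1.37 ± 0.163% of Psmb6 in NSCs, 0.398 ± 0.163% in ESCs, 0.165 ± 0.0656% in hybrid cells, and 0.139 ± 0.0343% in EPSCs. Psmb10 was 7.09 ± 0.523% of Psmb7 in NSCs and 4.26 ± 0.0207% in ESCs, while it was 2.00 ± 0.233% in EPSCs and 1.26 ± 0.241% in hybrid cells. The shares of NSCs were 25.9, 9.81, and 3.55 times those of EPSCs. Libraries of any 2 groups were separate in all 3 ratios except for Psmb9 to Psmb6 between hybrid cells and EPSCs (exact two-sided permutation p = 0.667). For the other 17 comparisons the exact two-sided p was 0.333, the smallest that 2 libraries against 2 can give, so no ratio could pass 0.05.

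**Figure D2:**
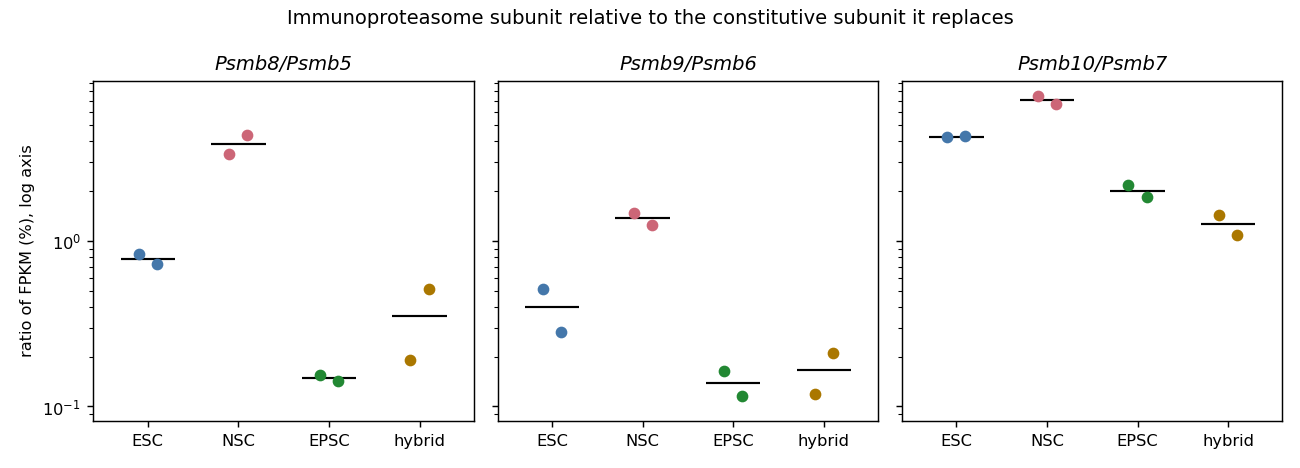
FPKM of Psmb8, Psmb9, and Psmb10 as a percentage of Psmb5, Psmb6, and Psmb7 (y axis, log scale) in each library, with the group mean as a line. The NSC libraries lie between 1.25% and 7.46%, and above every other group in each ratio.

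Nlrc5, the class I transactivator, was near the floor. It was listed at 0.0732 and 0.0850 FPKM in ESCs, 0.120 and 0.0769 in NSCs, 0.0401 and 0.0386 in EPSCs, and 0.0983 and 0.124 in hybrid cells. The EPSC libraries were lowest, and those of ESCs, NSCs, and hybrid cells overlapped in part. These values correspond to about 6.55 to 25.02 fragments per library. The gene did not reach 1 FPKM and was left out of the test, so that 9 of the 10 genes were tested. Psmb8 and Psmb9 passed this filter through NSCs alone, and Tap2 through NSCs and hybrid cells, so their difference from NSCs is partly set by the filter.

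The study fused EPSCs with NSCs to ask whether the somatic genome takes on the EPSC state, so hybrid cells were first compared with EPSCs. Hybrid cells had more B2m, H2-D1, Tap1, and Tap2 and less Psmb10 than EPSCs. B2m was 2.199 times as high, with a log2(FPKM + 1) difference of 1.11 (SE 0.11, limma, BH-adjusted p = 0.000402). Tap2 was 4.10 times as high, with a log2 difference of 0.83 (SE 0.12, limma, BH-adjusted p = 0.00181). H2-D1 was 1.86 times as high (log2 difference 0.72, SE 0.11, limma, BH-adjusted p = 0.0023), and Tap1 was 2.28 times as high (log2 difference 0.67, SE 0.08, limma, BH-adjusted p = 0.000773). Adding 1 to each FPKM makes the log2 differences of low genes smaller than their ratios. All 4 were higher in both hybrid libraries than in either EPSC library.

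The remaining 4 tested genes were not told apart, and their libraries overlapped. The log2 differences were -0.09 for H2-K1, -0.11 for Tapbp, 0.20 for Psmb8, and 0.21 for Psmb9 (limma, BH-adjusted p from 0.326 to 0.62). Psmb8 was called higher without hybrid replicate 1 (log2 difference 0.44, limma, BH-adjusted p = 0.0164) and stood at -0.05 without hybrid replicate 2. Psmb10 was 0.701 times as high in hybrid cells (log2 difference -0.44, SE 0.14, limma, BH-adjusted p = 0.0346). That call was lost without EPSC replicate 1 (-0.31, limma, BH-adjusted p = 0.159) and without hybrid replicate 2 (-0.27, limma, BH-adjusted p = 0.138), and also, at -0.44, without a filter on low values (limma, BH-adjusted p = 0.0647) and in a fit of the compared groups only (limma, BH-adjusted p = 0.144).

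By count, 4 of the 9 tested genes were higher in hybrid cells, against 22.5% of all 13239 tested genes, and 1 was lower, against 21.9%. The median log2 difference was 0.21 over the 9 genes and 0.00 over all tested genes. By the thresholds of the study's methods, read as a higher mean above 3 FPKM with the means more than 3 times apart, 0 of the 10 genes differed, against 0.866% of all 24354 genes. That rule has no test. Tap2 (4.10) passed its ratio, but the hybrid mean of 1.40 FPKM was under 3. The study's text also names a lower pair of thresholds. With both at 2, 1 gene differed, B2m, and the share of all genes at these lower thresholds was not counted.

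**Figure D3:**
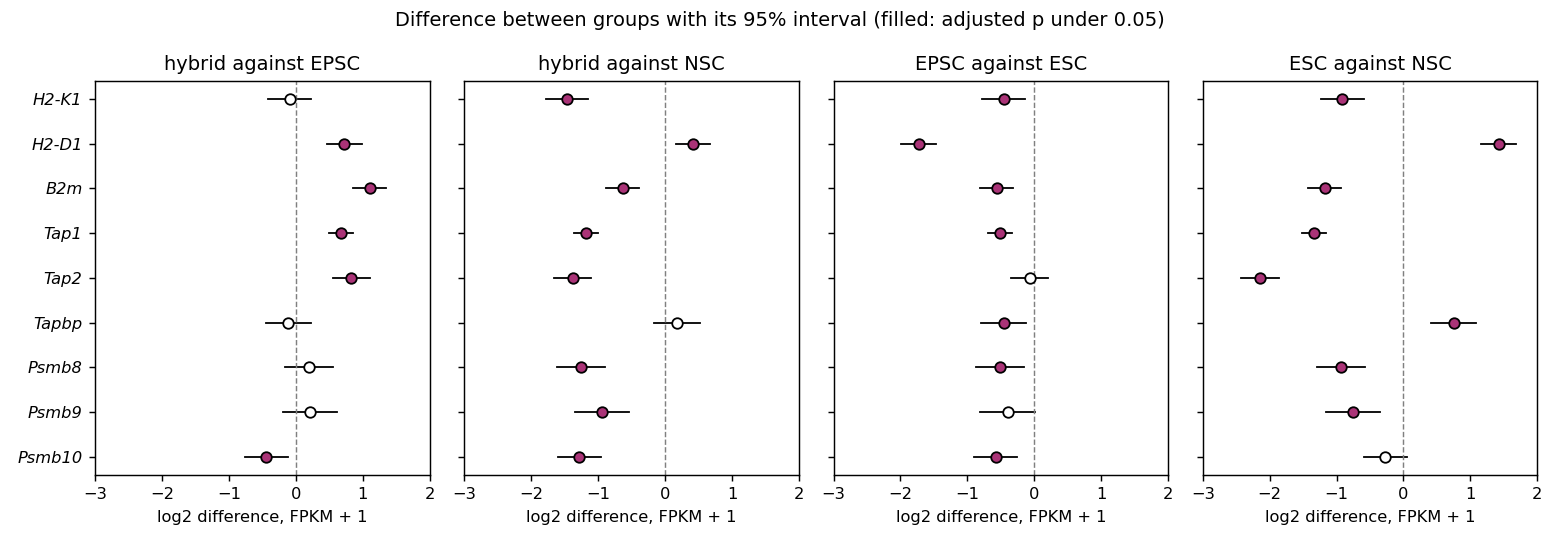
Log2(FPKM + 1) difference of each tested gene (x axis) with its 95% interval from limma in 4 comparisons, filled where the BH-adjusted p was under 0.05. Against EPSCs the hybrid cells stand higher for B2m, Tap2, H2-D1, and Tap1, and H2-D1 in hybrid cells against NSCs (0.42) turns to -0.11 when each library is scaled to the same FPKM sum.

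Fibroblast markers, listed to follow the feeder cells, moved with this comparison. The list includes Postn, which the study treats as an EPSC-specific gene, and the source of these transcripts was not tested. The 12 fibroblast markers summed to 423 and 310 FPKM in the hybrid libraries, 116 and 115 in the EPSC libraries, 21.5 and 23.9 in the ESC libraries, and 55.7 and 52.5 in the NSC libraries. All 11 of them that were tested were higher in hybrid cells than in EPSCs, against 22.5% of all tested genes. Their median log2 difference was 1.61, beside 0.00 over all tested genes. The 11 include Pdgfrb, which passed the filter through hybrid cells alone, so that this count is partly set by the filter. In NSCs, Col1a2, Lum, and Fap were listed at 0 in both libraries, and no marker was at 0 in both libraries of another group. Hybrid replicate 1, with the larger sum, also had more H2-K1, H2-D1, B2m, Tap2, and Psmb10 than hybrid replicate 2, and less of the other 5 genes. The part of the fibroblast markers in the class I differences was not tested. In bulk RNA, fewer cells of a type and less RNA per cell cannot be told apart. The 10 leukocyte markers summed to 0.161 to 3.67 FPKM in every library, and of the 2 that were tested, Cd3e, which passed the filter through hybrid cells alone, was higher in hybrid cells than in EPSCs (log2 difference 0.46, limma, BH-adjusted p = 0.0161). Of 5 endothelial markers, Pecam1, which pluripotent cells also express, stood at 20.2 to 41.8 FPKM in ESCs, EPSCs, and hybrid cells and was higher in hybrid cells than in EPSCs (log2 difference 0.58, limma, BH-adjusted p = 0.0341). Tek was lower (-0.52, limma, BH-adjusted p = 0.00833), and Cdh5, Kdr, and Emcn were under 0.3 FPKM in every library.

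**Figure D4:**
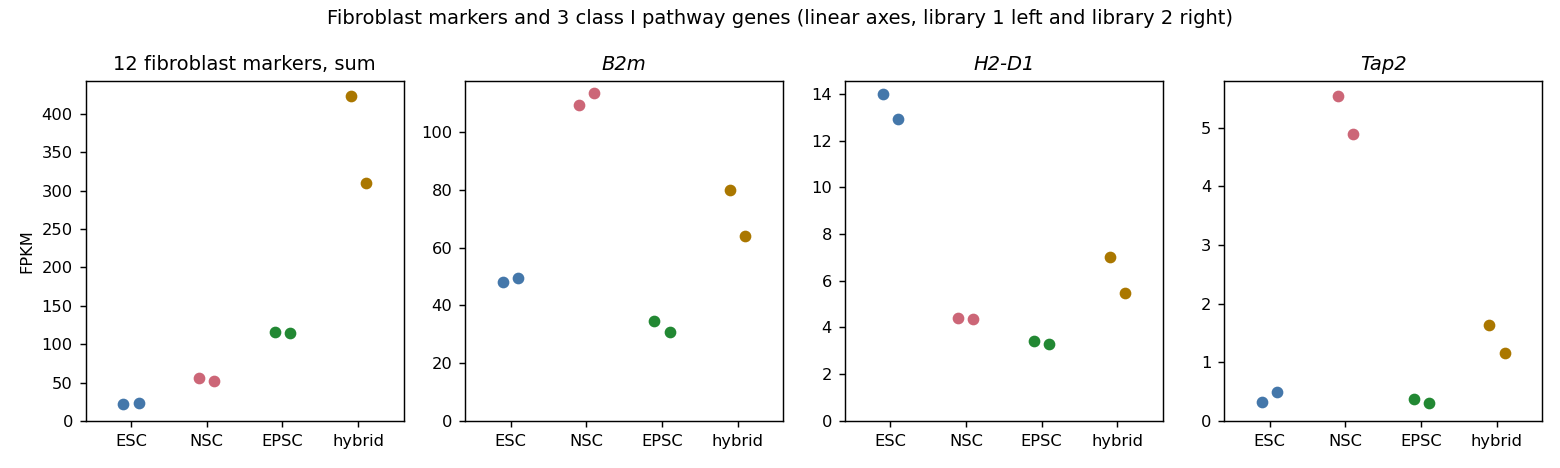
Summed FPKM of 12 fibroblast markers and FPKM of B2m, H2-D1, and Tap2 (y axes, linear) in library 1 (left point) and library 2 (right point) of each group. The marker sum is 310 and 423 in hybrid cells and at most 116 in the other groups, and in both hybrid libraries all 3 genes stand above their EPSC levels.

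Compared with NSCs, the other fusion partner, hybrid cells had lower levels of 7 of the 9 tested genes, against 42% of all tested genes, and a higher level of 1, H2-D1, against 44.5%. H2-K1 fell by 1.46 (SE 0.14, limma, BH-adjusted p = 2.13e-05) and Tap2 fell by 1.38 on the log2 scale (SE 0.12, limma, BH-adjusted p = 1.43e-05). The log2 differences were -1.28 for Psmb10, -1.26 for Psmb8, -1.18 for Tap1, and -0.94 for Psmb9 (limma, BH-adjusted p from 2.58e-06 to 0.00126). B2m fell least, by 0.63 (SE 0.11, limma, BH-adjusted p = 0.000721). In each case both hybrid libraries were below both NSC libraries. The 7 include Psmb8 and Psmb9, which passed the filter through NSCs alone, so that the count is partly set by the filter. The 11 tested fibroblast markers were all higher in hybrid cells than in NSCs (median log2 difference 4.21), against 44.5% of all tested genes. In hybrid cells they were also all higher than the log2 mean of both partners (2.98), against 38.7%. In EPSCs 8 were higher and 2 lower than in NSCs (2.81), against 45.2% and 41%. Pdgfrb passed the filter through hybrid cells alone, so the marker counts of hybrid cells are partly set by the filter.

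H2-D1 was 1.42 times as high in hybrid cells as in NSCs (log2 difference 0.42, SE 0.11, limma, BH-adjusted p = 0.00802), and 0.26 higher without hybrid replicate 1. Scaling each library to the same FPKM sum turned this to -0.11 (limma, BH-adjusted p = 0.374). That scaling moved the median of all tested genes to -0.51 in this comparison, so H2-D1 stood 0.39 above that median. Tapbp did not pass (log2 difference 0.18, limma, BH-adjusted p = 0.276) and was called in opposite directions under alternatives. It was lower under the same scaling (-0.41, limma, BH-adjusted p = 0.0436), and higher with quantile normalization (0.37, limma, BH-adjusted p = 0.0383) and without hybrid replicate 1 (0.40, limma, BH-adjusted p = 0.0152). The thresholds of the methods were passed by Tap2 alone, against 15.8% of all genes. They were passed by 3 members without hybrid replicate 1, by 2 without hybrid replicate 2 or NSC replicate 2, and by 6 with both thresholds at 2 or with libraries scaled to the same sum. The share of all genes passing under these other settings was not counted. The NSC to hybrid ratios of H2-K1 (2.94), Tap1 (2.92), and Psmb10 (2.72) were just under 3, and Psmb8 (4.64) and Psmb9 (3.24) had NSC means under 3 FPKM.

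EPSCs were compared with ESCs to set the extended against the conventional pluripotent state. These groups also differ in line and in medium, which cannot be told apart from the state here. EPSCs had lower levels of 7 of the 9 tested genes, against 27.3% of all tested genes, and a higher level of none, against 33.7% (limma), nor was any higher at an unadjusted p under 0.05. The median log2 difference was -0.52 over the 9 genes and 0.04 over all tested genes. Fibroblast markers moved with this comparison too, 10 of the 11 tested being higher in EPSCs (median log2 difference 2.45), and their part was not tested. H2-D1 fell by 1.73 on the log2 scale (SE 0.11, limma, BH-adjusted p = 2.33e-05), the largest difference, with both EPSC libraries under 3.5 FPKM and both ESC libraries over 12. B2m fell by 0.56 (SE 0.11, limma, BH-adjusted p = 0.00288) and Tap1 fell by 0.52 (SE 0.08, limma, BH-adjusted p = 0.000905). The log2 differences were -0.57 for Psmb10, -0.52 for Psmb8, and -0.46 for both H2-K1 and Tapbp (limma, BH-adjusted p from 0.00837 to 0.0275).

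The calls for those last 4 genes depended on single libraries, and those of H2-K1 and Tapbp also on the processing. H2-K1 lost its call in a fit of the compared groups only (-0.46, limma, BH-adjusted p = 0.0641). Tapbp lost its call without a filter on low values (-0.46, limma, BH-adjusted p = 0.0538). Without ESC replicate 1 all 4 were lost (limma, BH-adjusted p from 0.0594 to 0.108) while their log2 differences were -0.54 to -0.43, and 3 genes were left, H2-D1, B2m, and Tap1. Psmb8 lost its call without any 1 of the 4 libraries (-0.57 to -0.47). Without ESC replicate 2, H2-K1 (-0.49) and Tapbp (-0.46) lost theirs as well, as did Tapbp without EPSC replicate 1 (-0.32). The H2-K1 difference became -0.25 without EPSC replicate 2 (limma, BH-adjusted p = 0.0726). Tap2 (-0.07) and Psmb9 (-0.40) did not pass (limma, BH-adjusted p = 0.642 and 0.0838), though Psmb9 ranged from -0.62 to -0.18 with 1 library left out and was called lower without ESC replicate 2 (limma, BH-adjusted p = 0.0319). By the thresholds of the methods, H2-D1 alone differed, against 2.57% of all genes.

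Hybrid cells differed from ESCs in both directions, and all 11 tested fibroblast markers were higher in hybrid cells (median log2 difference 4.18). That marker count is partly set by the filter, which Pdgfrb passed through hybrid cells alone. B2m (log2 difference 0.55) and Tap2 (0.76) were higher, which is 2 of the 9 tested genes, against 35.3% of all tested genes. H2-K1, H2-D1, Tapbp, and Psmb10 were lower, which is 4 of 9, against 30.2%. H2-D1 fell by 1.01 (SE 0.11, limma, BH-adjusted p = 0.000174) and Psmb10 fell by 1.01 (SE 0.14, limma, BH-adjusted p = 0.000464). H2-K1 fell by 0.55 (limma, BH-adjusted p = 0.00879) and Tapbp fell by 0.57 (limma, BH-adjusted p = 0.0102). Without ESC replicate 1 both of these were lost (limma, BH-adjusted p = 0.0582 and 0.055), as was Tapbp without ESC replicate 2 (limma, BH-adjusted p = 0.056), and Tapbp became -0.35 without hybrid replicate 1. Tap1, Psmb8, and Psmb9 did not pass, though Psmb8 was called lower with quantile normalization (-0.43, limma, BH-adjusted p = 0.0387) and without hybrid replicate 2 (-0.56). Of the 10 genes, 0 passed the thresholds of the methods, against 3.63% of all genes.

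ESCs and EPSCs stood below NSCs for most of the 9 tested genes. These comparisons and that of hybrid cells share the NSC libraries. EPSCs had lower levels of 8 of the 9 tested genes, against 41% of all tested genes, and a higher level of none, against 45.2% (limma), nor at an unadjusted p under 0.05. Psmb8 and Psmb9, which passed the filter through NSCs alone, are in the counts of lower genes. ESCs had lower levels of 6, against 41.9%, and higher levels of 2, H2-D1 and Tapbp, against 42.8%. Of the 11 tested fibroblast markers, 7 were higher and 3 lower in ESCs than in NSCs (median log2 difference 0.58), and their part was not tested. For Tap2 the log2 differences were -2.21 in EPSCs and -2.14 in ESCs, and for Tap1 they were -1.85 and -1.33 (limma, BH-adjusted p from 2.26e-07 to 1.37e-06). For B2m they were -1.74 and -1.18, and for H2-K1 -1.37 and -0.91 (limma, BH-adjusted p from 1.85e-06 to 0.000366).

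H2-D1 was 3.07 times as high in ESCs as in NSCs (log2 difference 1.42, SE 0.11, limma, BH-adjusted p = 7.95e-06). In EPSCs it was lower than in NSCs by a log2 difference of -0.30 (limma, BH-adjusted p = 0.0329). That call was lost without any 1 of the 4 libraries (-0.33 to -0.28), and the difference turned to 0.12 with quantile normalization. With libraries scaled to the same sum it was -0.88 (limma, BH-adjusted p = 0.000132), and the median of all tested genes was -0.48. Tapbp was 1.74 times as high in ESCs as in NSCs (log2 difference 0.75, limma, BH-adjusted p = 0.00169), a call lost when libraries were scaled to the same sum (0.24, limma, BH-adjusted p = 0.201). By the thresholds of the methods, B2m, Tap1, and Tap2 differed between EPSCs and NSCs, against 15.6% of all genes. H2-D1, Tap1, and Tap2 did between ESCs and NSCs, against 15%. With both thresholds at 2 these counts were 6 and 6, and with libraries scaled to the same sum 6 and 5. For neither setting was a share of all genes counted.

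The hybrid level was then set between those of its partners. On the log2(FPKM + 1) scale, counting 0 at the NSC level and 1 at the EPSC level, the hybrid cells lay at 0.363 for B2m, 0.624 for Tap2, and 0.638 for Tap1. They lay closer to EPSCs for Psmb9 (0.817) and Psmb8 (0.864), near the EPSC level for H2-K1 (1.07), and beyond it for Psmb10 (1.52). H2-D1 lay outside the range of both partners, above NSCs, except when libraries were scaled to the same sum. For Tapbp (0.616) the partners themselves were not told apart. EPSCs were, however, called higher than NSCs with quantile normalization (log2 difference 0.46, limma, BH-adjusted p = 0.0165) and without EPSC replicate 1 (0.42). With libraries scaled to the same sum the Tapbp difference was -0.29. As an arithmetic share of the mean of both partners in FPKM, the hybrid cells had 161% of H2-D1, 103% of Tapbp, 99.9% of B2m, 59.6% of Tap1, 51.3% of Psmb9, 50.2% of Tap2, 49.7% of H2-K1, 48.3% of Psmb10, and 38.0% of Psmb8. The share of Psmb8 depended on the library, since the hybrid libraries stood at 0.329 and 0.865 FPKM beside a partner mean of 1.57.

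**Figure D5:**
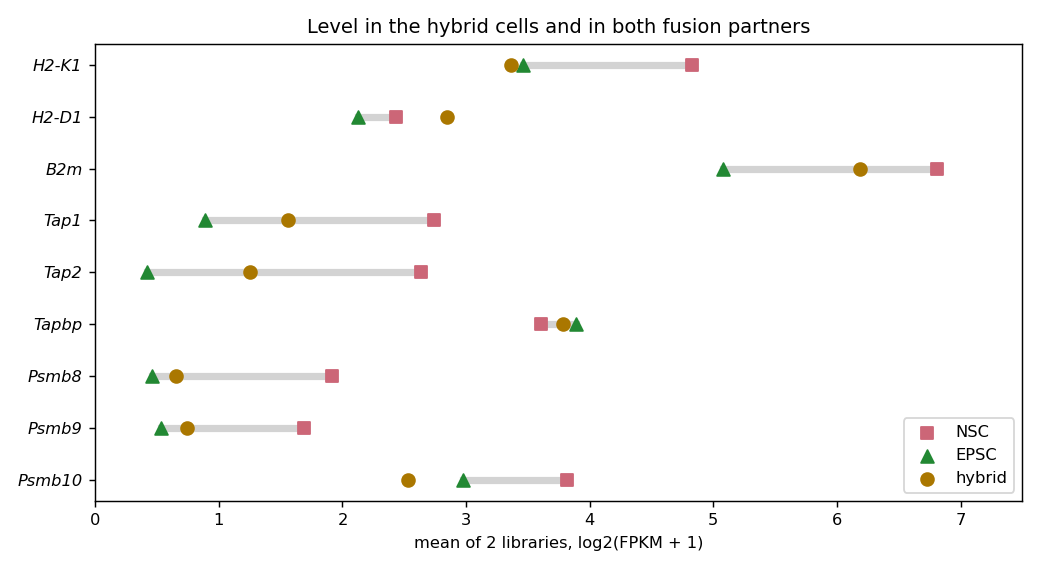
Mean log2(FPKM + 1) (x axis) of hybrid cells (circles), NSCs (squares), and EPSCs (triangles) for the 9 tested genes, with a grey bar between the partners. Hybrid cells lie inside the bar for B2m, Tap1, Tap2, Tapbp, Psmb8, and Psmb9, below it for H2-K1 and Psmb10, and above it for H2-D1, which stands below NSCs (-0.11) when libraries are scaled to the same FPKM sum.

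In limma, hybrid cells were tested against the mean of both partners on the log2 scale, which is lower than the arithmetic mean when the partners differ. There, 5 of the 9 tested genes were lower, against 38.5% of all tested genes, and 2 were higher, against 38.7%. The 5 include Psmb8, which passed the filter through NSCs alone, so that its call and the count are partly set by the filter. Psmb10 (-0.86) and H2-K1 (-0.78) were lower and H2-D1 (0.57) was higher (limma, BH-adjusted p from 0.000316 to 0.000956). Psmb8 (-0.53) and Tap1 (-0.26) were lower too (limma, BH-adjusted p = 0.00723 and 0.00863), and without hybrid replicate 1 Psmb8 stood at -0.29. Tap1 lost its call with a pseudocount of 0.1 (-0.20, limma, BH-adjusted p = 0.141) and with quantile normalization (-0.08, limma, BH-adjusted p = 0.267). Psmb9 did not pass (-0.36, limma, BH-adjusted p = 0.0576) but was called lower without hybrid replicate 2 (-0.53), in a fit of the compared groups only, and when libraries were scaled to the same sum (limma, BH-adjusted p from 0.0107 to 0.0365). B2m (0.24, limma, BH-adjusted p = 0.0447) and Tap2 (-0.28, limma, BH-adjusted p = 0.0414) were called only narrowly. B2m lost its call without NSC replicate 1, NSC replicate 2, EPSC replicate 2, or hybrid replicate 1 (0.08 to 0.25), was 0.40 without hybrid replicate 2, turned to -0.07 when libraries were scaled to the same sum, and was 0.0213 with quantile normalization (limma, BH-adjusted p = 0.816). Tap2 lost its call without NSC replicate 1, either EPSC replicate, or hybrid replicate 2 (-0.29 to -0.13), and was -0.42 without hybrid replicate 1. It stood at -0.0482 with a pseudocount of 0.1 and at -0.14 with quantile normalization (limma, BH-adjusted p = 0.84 and 0.329). Neither gene was called without a filter on low values or in a fit of the compared groups only.

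The other genes of the pathway were counted from lists. Of 19 relatives of the class I heavy chains, 11 were tested. Against NSCs, limma called 8 of these lower in hybrid cells and none higher, against 42% and 44.5% of all tested genes, with a median log2 difference of -0.73 beside 0.06. H2-Q6, H2-Q10, Mr1, and Hfe reached a mean of 1 FPKM in NSCs alone, so that this count and median are partly set by the filter on low values. In hybrid cells against EPSCs, limma called 3 of the 11 higher and none lower, against 22.5% and 21.9%, with a median of 0.15 beside 0.00. At an unadjusted p under 0.05 the same directions were still empty. Since these genes resemble each other, reads may have been divided among them, and their single levels are uncertain. H2-Q4, a nonclassical heavy chain gene, stood at 2.54 and 2.08 FPKM in EPSCs, 6.62 and 6.04 in ESCs, 7.31 and 6.86 in NSCs, and 8.82 and 6.89 in hybrid cells. EPSCs stood apart at the low end, with log2 differences of 1.41 for hybrid cells against EPSCs and -1.15 for EPSCs against ESCs (limma, BH-adjusted p = 0.000324 and 0.00022). The list as a whole did not follow H2-Q4 in EPSCs against ESCs. There 4 of the 11 were higher and 3 lower, against 33.7% and 27.3% of all tested genes, with a median of 0.14 beside 0.04. The lower genes include H2-K2, which passed the filter through ESCs alone, so that their count is partly set by the filter. H2-T22 and Cd1d1, which presents lipids, were the other 2 that were higher in hybrid cells than in EPSCs (log2 differences 0.83 and 0.49). Cd1d1, Hfe, and Mr1, which presents vitamin B metabolites, had the largest differences of the list between hybrid cells and NSCs (-2.48, -1.90, and -1.76), those of Hfe and Mr1 being partly set by the filter.

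Of 14 genes for peptide loading and trimming, 13 were in the table and tested. In hybrid cells against NSCs 6 were higher and 5 lower, where 44.5% and 42% of all tested genes were, and the median log2 difference was 0.12 (all tested genes 0.06). Against EPSCs 5 were higher and 2 lower, where 22.5% and 21.9% of all tested genes were, and the median was 0.14 (all tested genes 0.00). Erap1, the aminopeptidase that trims peptides in the endoplasmic reticulum, had the largest difference of the list between hybrid cells and NSCs. It stood at 7.52 and 7.92 FPKM in NSCs and between 0.809 and 1.117 in all other libraries. Its log2 differences from NSCs were -2.05 in hybrid cells, -2.199 in EPSCs, and -2.197 in ESCs (limma, BH-adjusted p from 1.18e-07 to 1.72e-07). The general chaperones Canx, Calr, Pdia3, and Hspa5 were at 135 to 504 FPKM in all 8 libraries. Of the 4 proteasome activator genes, 2 were higher and 1 lower in EPSCs than in ESCs, where 33.7% and 27.3% of all tested genes were. In hybrid cells against ESCs 1 was higher and 2 lower, beside 35.3% and 30.2%. Against NSCs 3 were higher in hybrid cells, 3 in EPSCs, and 4 in ESCs, and none lower, beside 44.5%, 45.2%, and 42.8% higher. Psme2, whose product belongs to the interferon-induced PA28 ring, was lower in EPSCs (-0.75) and in hybrid cells (-0.67) than in ESCs (limma, BH-adjusted p = 2.54e-05 and 2.71e-05). Psme1 was not called in EPSCs against ESCs (62.3 and 64.3 FPKM) and was lower in hybrid cells than in ESCs (-0.33, limma, BH-adjusted p = 0.00214). Psme3 (0.31) and Psme4 (0.29) were higher in EPSCs than in ESCs (limma, BH-adjusted p = 0.00729 and 0.00339).

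Of 28 genes for interferon signalling and class I regulation, 27 were tested. In hybrid cells against EPSCs 10 were higher and 5 lower, where 22.5% and 21.9% of all tested genes were. In EPSCs against ESCs 10 were higher and 7 lower, beside 33.7% and 27.3%. In hybrid cells against NSCs 12 were higher and 14 lower, beside 44.5% and 42%. The medians of these 3 comparisons were 0.19, 0.08, and -0.35, beside 0.00, 0.04, and 0.06 over all tested genes.

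Irf7, an interferon-induced factor, stood at 8.98 and 7.60 FPKM in ESCs, 1.84 and 2.30 in hybrid cells, 0.953 and 0.535 in EPSCs, and 0.173 and 0.174 in NSCs. It fell by 2.42 in EPSCs against ESCs (SE 0.14, limma, BH-adjusted p = 1.48e-05). Irf1, which binds class I promoters, had another order, at 8.16 to 8.59 FPKM in ESCs and NSCs, 16.7 and 16.0 in EPSCs, and 22.1 and 18.7 in hybrid cells. It was higher by 0.89 in EPSCs against ESCs and by 0.30 in hybrid cells against EPSCs (limma, BH-adjusted p = 0.000141 and 0.0281).

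Irf9, a DNA-binding factor of interferon signalling, stood at 22.6 and 22.1 FPKM in ESCs, 12.4 to 13.5 in EPSCs and hybrid cells, and 3.98 and 3.52 in NSCs. Rfx5, which binds the X box of class I promoters, stood at 10.05 and 10.7 FPKM in NSCs, 3.43 to 3.91 in EPSCs and hybrid cells, and 1.74 and 1.79 in ESCs. Neither differed between hybrid cells and EPSCs beyond the spread (limma, BH-adjusted p = 0.388 and 0.512). Jak2 and Irf2 had the largest differences from NSCs with log2 differences of -3.05 and -2.96 in hybrid cells (limma, BH-adjusted p = 2.27e-07 and 7.18e-08). Irf2 reached a mean of 1 FPKM in NSCs alone, so its difference is partly set by the filter.

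Class II genes were low, and 4 of the 9 listed were tested. H2-Eb1, a class II beta chain gene, was at most 0.248 FPKM in ESCs and NSCs, stood at 1.05 and 1.46 in EPSCs, and was highest in hybrid cells at 4.25 and 4.80. It was higher by 1.30 in hybrid cells against EPSCs (SE 0.10, limma, BH-adjusted p = 0.000227), and it was the 1 class II gene of 4 called higher in that comparison, against 22.5% of all tested genes. Ciita, the class II transactivator, was at most 0.0524 FPKM in any library.

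Across the 8 libraries, the mean z-score of the 9 tested genes was 0.961 and 0.884 in NSCs, 0.275 and 0.139 in ESCs, -0.395 and -0.304 in hybrid cells, and -0.722 and -0.837 in EPSCs. These points are 4 pairs of libraries, so a likeness to this profile is a likeness in the order of 4 groups. Cenpb (Pearson's r = 0.998), 1110032A03Rik (0.994), Sfmbt1 (0.992), 9230110C19Rik (0.992), and Pex19 (0.991) were the 5 tested genes most like it over 8 libraries. Cenpb, a centromere protein gene, stood at 87.8 and 86.8 FPKM in NSCs, 44.3 and 41.1 in ESCs, 23.5 and 23.9 in hybrid cells, and 16.7 and 16.3 in EPSCs. Within the pathway, Psmb8 and Psmb9 were the most alike (r = 0.959), followed by Tap1 and Tap2 (0.953), Tap1 and Psmb8 (0.937), and B2m and Tap1 (0.936), whereas H2-D1 and H2-K1 had an r of -0.02. These correlations are over 8 libraries that share 4 lines, and are given as descriptions.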

How the data were processed

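Poly-A RNA of 8 libraries was sequenced by the authors with the TruSeq Stranded mRNA kit as paired 100-base reads, trimmed with skewer, and aligned to mm10 with STAR 2.7.9a. They deposited FPKM per gene and library from Cuffnorm of Cufflinks 2.2.1. Annotation, strand option, and library normalization are not given in the sources used here. FPKM were analysed with limma 3.58.1 (R 4.3.3, lmFit and eBayes with trend, two-sided) on log2(FPKM + 1), with 4 groups in 1 fit, over 13239 genes whose mean FPKM reached 1 in a group, and called at a Benjamini-Hochberg adjusted p under 0.05. The spread had 4 residual and 3.25 prior degrees of freedom. In simulated data for hybrid cells against EPSCs, 200 of 13239 genes were changed. Of these, 92 of 100 changed by a log2 of 1 and 100 of 100 changed by a log2 of 2 were recovered, with 8 false calls among the unchanged genes. The simulated noise was independent between libraries, and far fewer genes were changed than were called in the real libraries. The number of false calls therefore need not hold for them. Ratios were compared with exact permutation tests in scipy 1.17.1. Transcripts came from GENCODE M21 and positions from RefSeq.

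The members and lists were chosen with earlier results of these data known. The text names all 10 members, Psmb5, Psmb6, Psmb7, Irf1, Irf9, and Rfx5, and from each list up to 3 called genes with the largest difference per comparison. One other gene that the rule names is not reported here. Genes given as markers or at 0 come from the marker lists, and Erap1, Psme2, Ciita, H2-M3, and the general chaperones were singled out after their values were seen. Correlation with the mean z-score of the tested members picked the 5 most similar genes. Depth was derived from FPKM steps with an assumed fragment length of 200 bases, and 0.704 to 0.786 of the values used were whole within 0.1 fragments, and intervals cover these libraries alone. Alternatives were another pseudocount (0.1), other filters, scaling to a sum of 1000000, quantile normalization, fits of the compared groups only, a replicate block, other thresholds, and leaving out each library.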

Additional observations from a re-analysis of the deposited data

How the results depend on the processing

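With 2 libraries of 1 line per group, no library was tested as an outlier, and values under 1 FPKM rest on few fragments. Among member differences under alternatives, 625 kept their direction and side of the threshold. Without a change of sign, 43 lost a call and 14 gained one, and 15 changed sign. Some of those 15 also lost a call, as H2-D1 did in hybrid cells against NSCs with libraries scaled to the same sum. Tapbp gained a call there. The cause of these changes was not tested.

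Leaving out 1 library gave 3 to 5 called members for EPSCs against ESCs. Quantile normalization gave 4 for hybrid cells against both partners and turned H2-D1 in EPSCs against NSCs to 0.12. The share of all genes past the thresholds of the methods was counted only for deposited FPKM with both at 3. Counts of members under other settings have no such share beside them. With both thresholds of the methods at 2, members past them numbered 1 for hybrid cells against EPSCs, 6 against NSCs, and 2 against ESCs, and 6 for EPSCs and 6 for ESCs against NSCs. With libraries scaled to a sum of 1000000 they numbered 6 for hybrid cells, 6 for EPSCs, and 5 for ESCs against NSCs, and leaving out 1 library gave 1 to 3 for hybrid cells against NSCs. That scaling moved the median of all tested genes to -0.51 for hybrid cells, -0.48 for EPSCs, and -0.47 for ESCs against NSCs, and to -0.27 for hybrid cells against both partners. Under it H2-D1 (-0.11) and Tapbp (-0.41) in hybrid cells against NSCs, Tapbp in EPSCs against NSCs (-0.29), and B2m (-0.0716) and Tapbp (-0.27) in hybrid cells against both partners were below 0. The share of tested genes called higher fell there: 4013 were higher and 7625 lower in hybrid cells against NSCs, where FPKM as deposited gave 5893 and 5556.

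Without 1 library, log2 differences spanned 0 for H2-K1 (-0.30 to 0.12), Psmb8 (-0.0461 to 0.442), and Tapbp (-0.33 to 0.11) in hybrid cells against EPSCs, Tapbp against NSCs (-0.0381 to 0.395), Psmb9 against ESCs (-0.407 to 0.0356), Tapbp against both partners (-0.18 to 0.25), and Tap2 in EPSCs against ESCs (-0.159 to 0.0202). None of these was called with all libraries. The log2 ratio of Psmb9 to Psmb6 between hybrid cells and EPSCs was 0.25 as deposited, -0.15 after adding 1 FPKM, and -0.23 to 0.60 without 1 library. That of Psmb8 to Psmb5 was 1.24 as deposited and 0.36 to 1.78 without 1 library. Psmb8 and Psmb9 were not tested under a filter of 3 FPKM.

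The labels share replicate numbers but name no pairing. Deviations of equal-numbered libraries correlated at 0.28 between hybrid cells and EPSCs and at -0.11 to 0.07 between other groups. With a replicate block, 9 instead of 8 members were called in ESCs against NSCs (Psmb10, limma, Benjamini-Hochberg adjusted p = 0.0247), and no other call changed.

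Nlrc5, tested only without a filter on low values, was called in hybrid cells against EPSCs (log2 difference 0.10, limma, Benjamini-Hochberg adjusted p = 0.0353) and in EPSCs against NSCs (-0.08, limma, Benjamini-Hochberg adjusted p = 0.0313).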
